A study of Drosophila melanogaster with 4 samples.

Results

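Of 7900 open chromatin regions with a peak in all 4 libraries of a pupal wing experiment, 861 lay near a gene end and ranked higher when the protein Osa was targeted for degradation. Osa is the ARID subunit of the Brahma complex, the fly SWI/SNF remodeler, which uses ATP to slide or evict nucleosomes. Open regions at gene ends are often promoters, which many tissues share, whereas open regions farther away are often enhancers that only some cells use.

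Accessibility was measured by FAIRE-seq, which sequences the nucleosome-poor DNA that stays in the aqueous phase when crosslinked chromatin is extracted with phenol. Every sample's title names this assay, and the protocols describe pupal wings, whereas the series' design text speaks of anti-GFP CUT&RUN on larval discs. The samples were taken as what their own labels say. Wings came from female pupae at 24 to 36 h after puparium formation, 40 wings per library, from animals raised at 23 °C and shifted to 29 °C as wandering larvae. Osa-deGrad and control wings have 2 libraries each. All animals were homozygous for the GFP-tagged osa allele (osa-GFP) and carried the deGrad transgene UAS-Nslmb-vhhGFP, an anti-GFP nanobody fused to an F-box that sends GFP-tagged proteins to degradation. Only Osa-deGrad animals carried the wing driver nub-GAL4, and the loss of Osa protein is not measured by these data. The labels name 1 tagged allele and 1 driver, and do not say whether replicates came from separate crosses, so the spread between libraries may be technical.

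The members were chosen by measured values. Peaks of the 4 deposited lists that overlapped by at least 1 bp were merged into 24088 regions. The 7900 regions present in every list were ranked within each library by the highest −log10 q value of their peaks and expressed as a percentile, so that 100 is the strongest shared region of that library. A region was kept when both Osa-deGrad percentiles lay above both control percentiles and its strongest summit lay within 500 bp of an annotated gene end. This gave 861 of 3899 shared regions near a gene end, or 22.1%. In the opposite direction, 446 of the 3899 had both controls above both Osa-deGrad libraries (11.4%). Among the 4001 shared regions farther from gene ends the shares were 14.0% and 23.5%, and over all 7900 they were 18.0% and 17.6%. These shares come from the ranks that chose the regions and are given as a description, without a test. All percentiles are ranks among the same 7900 regions, so a rise of some regions lowers others. The shares near and far from gene ends are thus tied, and a higher rank need not be a gain of accessibility. With 2 libraries against 2, the smallest exact permutation p for a single region is 0.333.

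**Figure D1:**
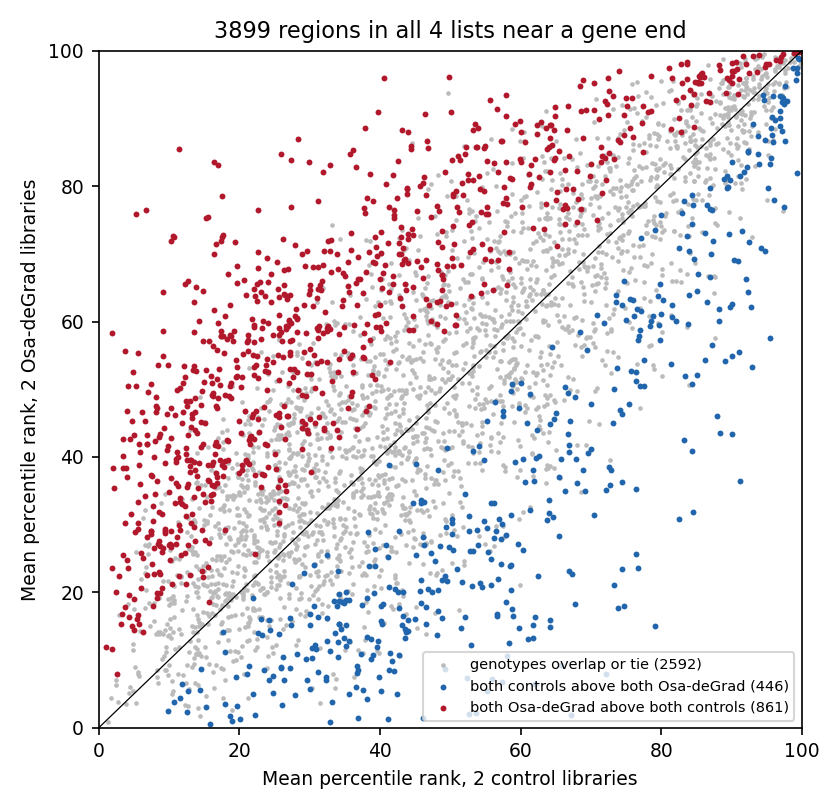
Mean percentile rank in the 2 Osa-deGrad libraries (y axis) against the 2 control libraries (x axis) for the 3899 shared regions near a gene end, 1 point per region. The 861 regions with both Osa-deGrad libraries above both controls are red, the 446 opposite regions are blue, and the remaining regions, in grey, overlap or tie between genotypes.

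The 4 lists held 13953 to 18007 peaks and replicate 2 was the longer list in each genotype, with a median −log10 q of 10.6 (Osa-deGrad) and 10.1 (control) against 7.004 and 6.65 in replicate 1. Read depth is unknown from these files. Ranks within a library remove the overall difference in −log10 q but not the coarser steps of a weaker library. In Osa-deGrad 1 and control 1, 83.2% and 83.7% of shared regions had a −log10 q that another shared region also had, with up to 109 and 141 regions at 1 value. In Osa-deGrad 2 and control 2 the shares were 76.6% and 76.8%, with up to 64 and 60 regions at 1 value.

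The members' median percentile was 60.1 in Osa-deGrad 1, 63.01 in Osa-deGrad 2, 27.006 in control 1 and 33.5 in control 2. Over all 3899 shared regions near a gene end the medians were 48.6, 54.3, 44.3 and 45.4. The median of the authors' fold enrichment, a ratio over the peak caller's local background, was 7.01 and 6.84 for the members in the Osa-deGrad libraries, against 5.03 and 5.91 in the controls. Without ranking, fold enrichment lay above both controls in both Osa-deGrad libraries for 480 of the 861 members (55.7%). It overlapped between the genotypes or ran the other way in the rest. The same count was not made for other shared gene-end regions, so whether this share is high is unknown. Libraries differed in scale: the median fold enrichment over all shared gene-end regions was highest for control 2 (6.59) and lowest for control 1 (5.95). This median was 6.13 for Osa-deGrad 1 and 6.26 for Osa-deGrad 2. Fold enrichment comes from the same peaks, so it is no independent measure of these regions.

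The rank gap was taken as the lower Osa-deGrad percentile minus the higher control percentile. It ranged from 0.0443 to 66.9 points, with a median of 8.32 and quartiles at 3.63 and 16.3. Gaps of at least 10 points were found in 382 members, of at least 20 in 154, of at least 30 in 54 and of at least 50 in 7. Most gaps were thus small beside the spread between libraries of a genotype, whose median was 10.6 points in Osa-deGrad and 10.5 in control wings. In 229 members (26.6%) the gap exceeded the distance between the libraries of both genotypes. The 446 opposite regions had a median gap of 6.98 points, and 113 of them (25.3%) exceeded both distances.

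**Figure D2:**
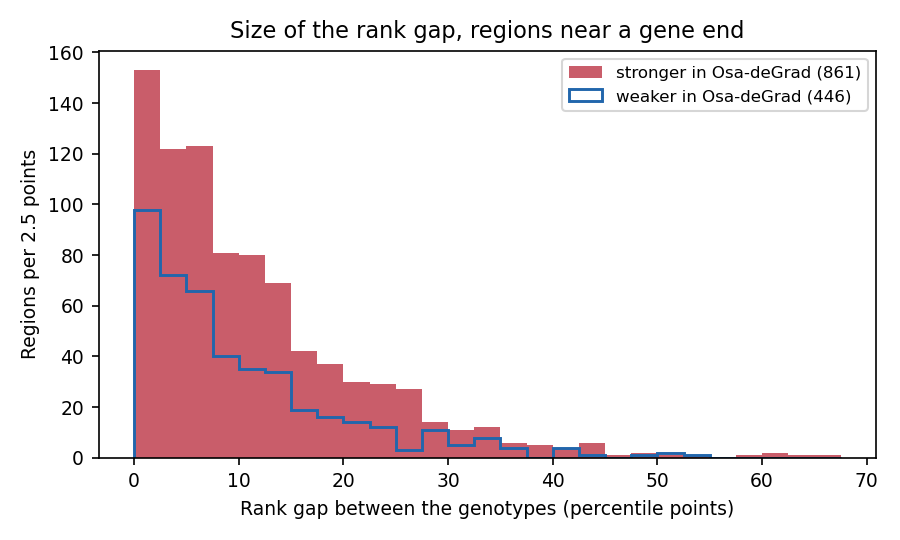
Histogram of the rank gap in percentile points for the 861 regions ranked higher in Osa-deGrad (filled, labelled stronger) and the 446 ranked lower (outline, labelled weaker), in bins of 2.5 points. Both fall off from 0, and the regions ranked higher reach 66.9 points.

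The gap differed with a region's mean percentile, which comes from the same 4 ranks as the gap. A mean near either end of the scale leaves little room for a gap, so this pattern is in part arithmetic. Shared gene-end regions with a mean percentile of 40 to 60 held 260 members out of 1042 (24.95%), with a median gap of 11.1 points. Between 20 and 40 there were 284 of 1242 (22.9%, median gap 9.99), and between 60 and 80 there were 157 of 751 (20.9%, median gap 9.59). Above 80 there were 86 of 488 (17.6%) with a median gap of 3.58 points, and at 20 or below 74 of 376 (19.7%) with 4.26.

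The largest gap was found at CG9588 (3R, 13676520 to 13676963, dm6), 5 bp from the end of that gene. Its percentiles were 79.0 and 92.04 in the Osa-deGrad libraries against 12.04 and 10.9 in the controls, a gap of 66.9 points, and the authors' fold enrichment was 9.19 and 10.1 against 4.32 and 4.60. An end of Lkb1, which encodes a polarity kinase, also lay within 500 bp. Khc-73, a kinesin motor gene, followed with a region 36 bp from its end (2R, 15531750 to 15532582). It stood at 75.01 and 77.97 after Osa degradation was targeted, while the controls stood at 1.58 and 11.8. Next came shg, the E-cadherin gene, with its region 48 bp from the gene's end (2R, 21057123 to 21057367). The shg percentiles were 87.7 and 79.6 against 17.4 and 15.4. In all of these regions the genotypes were farther apart than the libraries within either of them.

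The V-ATPase subunit gene VhaSFD held the tightest pair of controls among the 4 largest gaps, at 4.82 and 5.92, against 67.5 and 84.3 in Osa-deGrad (2L, 16727751 to 16727993, 34 bp from the gene's end). At CG8001 (3L, 1756168 to 1756472) the values were 81.04 and 85.3 against 12.04 and 22.04, and an end of the chitinase gene Cht2 lay within the same 500 bp. Drp1, the dynamin of mitochondrial fission, stood at 79.2 and 66.1 against 7.48 and 13.5 (2L, 2585339 to 2585640). The region of pita, which encodes a zinc finger insulator protein, was centred 473 bp from that gene (2R, 23553961 to 23554828), with 70.9 and 74.1 against 1.72 and 19.8. At cN-IIIB, a nucleotidase gene that shares the site with ocm, the values were 81.9 and 69.1 against 11.2 and 19.8 (2R, 24195357 to 24195862). Of these regions, that of pita was the farthest from a gene end.

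The Notch ligand gene Delta had its region 60 bp from the gene's end (3R, 19326077 to 19326388), at 68.6 and 77.2 with Osa targeted against 15.9 and 19.5 in the controls. Phb1, a mitochondrial prohibitin gene, stood at 77.5 and 73.04 against 25.9 and 4.72 (2L, 19123767 to 19124039). Adck5 stood at 82.03 and 87.6 against 14.5 and 37.5 (3L, 11169904 to 11170161), and wls, needed for Wnt secretion, has an end in the same window. The 12th was Dronc, the initiator caspase gene, at 90.2 and 83.9 against 16.6 and 39.99 (3L, 9968242 to 9968562). Over these 12 regions the lowest Osa-deGrad percentile was 66.1 and the highest control percentile 39.99. In 7 of the 12, ends of 2 or more genes lay within 500 bp, and not all of these genes are named here. Fold enrichment did not overlap between the genotypes in any of the 12. As it comes from the same peaks and the 12 were chosen for their large gaps, this adds no support. Most of them include a weak peak: of the 12, only Phb1 had a −log10 q of at least 5 in all 4 lists.

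**Figure D3:**
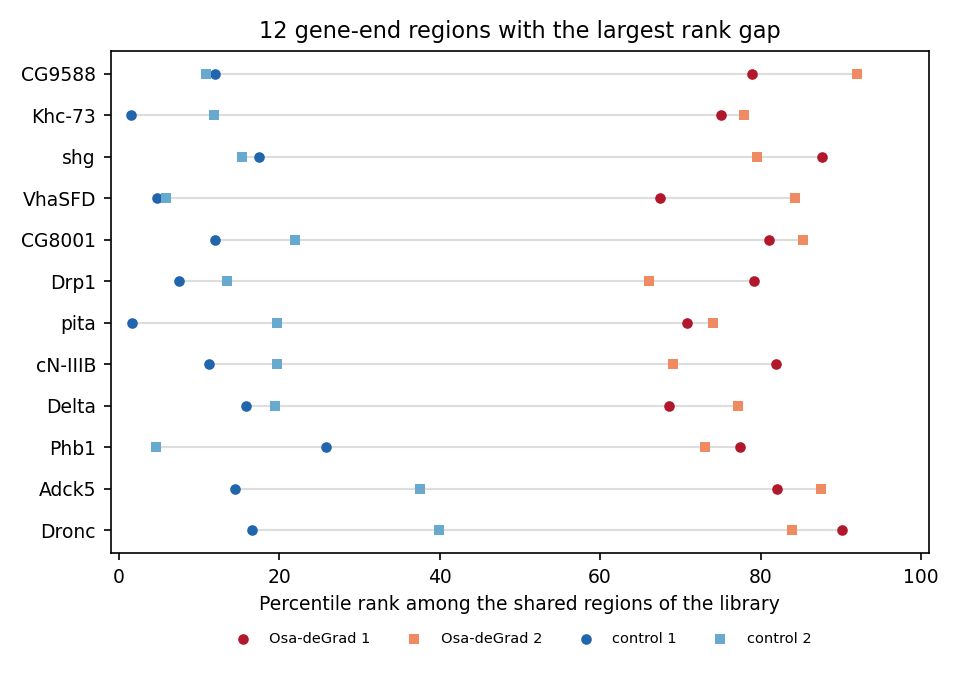
Percentile rank of the 12 gene-end regions with the largest rank gap in each library (x axis), 1 row per region named by its gene; red and orange mark Osa-deGrad 1 and 2, dark and light blue control 1 and 2. All Osa-deGrad values lie at 66.1 or higher and all control values at 39.99 or lower.

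At the other end, shd, the ecdysone 20-hydroxylase gene, had the smallest gap of any member, 0.0443 points (89.50 and 95.4 against 89.46 and 84.4). CG9896 and ImpE1 were next at 0.0633 and 0.0759. Just outside the rule lay myd and CG32795, each with a tie between an Osa-deGrad and a control percentile, and Fsn at -0.0190. The values of ImpE1, an ecdysone-inducible gene, show how little a rank can separate among the strongest regions, at 99.8 and 99.9 against 99.7 and 99.6. Its fold enrichment was lower in Osa-deGrad within both same-numbered pairs, at 21.7 and 15.3 against 25.04 and 16.996. The chitinase gene Cht6 (99.5 and 99.7 against 99.1 and 98.7) and the megalin gene mgl (99.3 and 99.7 against 98.8 and 95.9) were the other members with the highest mean percentile. The lowest means were those of CG6749 (6.89 and 8.92 against 3.68 and 1.47), Incenp, a chromosomal passenger gene (17.9 and 5.89 against 0.057 and 2.06), and CG43386 (5.35 and 17.9 against 3.32 and 0.582).

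Where the members lay was a feature that the ranks did not use. The strongest summit was a median of 55 bp from a gene end, against 61 bp over all shared gene-end regions and 79 bp in the opposite set, and 407 members (47.3%) lay within 50 bp. Ends of 2 or more protein-coding genes within 500 bp were found for 386 members (44.8%), against 41.3% of all shared gene-end regions and 30.5% of the opposite set. Genes of all types, not only protein-coding ones, were counted for the next classes. Members made up 421 of 2054 regions (20.5%) with 1 gene in the window. They were 380 of 1630 (23.3%) with 2 genes and 60 of 215 (27.9%) with 3 or more. The opposite regions made up 13.8%, 8.83% and 8.37% of the same classes. These shares were not tested, because overlapping genes and neighbouring regions are not independent. The gene table used here gives no strand, so both ends of a gene were counted alike.

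The nearest gene end belonged to a protein-coding gene for 792 members (91.99%), to a lncRNA for 38, an antisense RNA for 16, a tRNA for 8 and a miRNA for 5. In 43 members no protein-coding gene had an end within 500 bp, and a region then carries the name of the closest protein-coding gene, which may be farther away. Chromosome arm 2R held 194 members (22.5%), 3R 187, 3L 184, X 147, 2L 146 and chromosome 4 held 3. By arm, members were between 19.3% (X) and 24.6% (2R) of the shared gene-end regions, with 15.8% of 19 regions on chromosome 4. Members were a median of 401 bp wide, against 409 bp for all shared gene-end regions. The 4 libraries placed their summits within 50 bp of each other in 313 members (36.4%), against 34.9% of all shared gene-end regions.

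The 861 regions were assigned to 844 genes, of which 17 had 2 member regions. Delta had the largest median gap of these, with its other region (3R, 19326525 to 19326841) at 52.3 and 56.6 against 22.6 and 45.7. That region lay 141 bp from lncRNA:CR44175 and 458 bp from Delta. Its fold enrichment overlapped between the genotypes, at 6.51 and 6.63 in Osa-deGrad against 4.89 and 6.84 in control libraries. At DnaJ-1, which encodes an Hsp40 chaperone, both regions were members, at 53.1 and 40.3 against 4.27 and 3.72 (3L, 5749717 to 5749943) and at 43.8 and 34.7 against 24.02 and 18.1 (3L, 5752098 to 5752332). CG4586, nst and Mapmodulin followed with median gaps of 20.8, 19.99 and 12.97 points. The nst regions share their windows with Tsf2 and eIF2beta, and both Mapmodulin regions lay nearest to lncRNA:CR44417. A member within 10 kb was found for 25.3% of members and 23.8% of all shared gene-end regions.

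Gene lists were described by counts. Over all shared gene-end regions, 22.1% were members and 11.4% opposite, with a median gap of 8.32 points for the members. The lists were written with earlier results of these data known, and no list was tested. The window of a region can also hold ends of further genes, which are not named for every region. Cytoplasmic ribosomal protein genes had 16 members of 47 shared gene-end regions (34.04%), with a median gap of 11.4 points, and 5 regions in the opposite direction. RpL23 had the largest gap of the list, at 58.4 and 77.9 against 35.9 and 22.7 (2R, 22854164 to 22854519). RpL11 stood at 94.2 and 91.3 against 41.4 and 69.8 (2R, 19442122 to 19442443). In RpL22 the controls differed from each other more than the genotypes did, with 89.0 and 77.2 against 4.27 and 61.5. The opposite regions were those of RpL41 (10.9 and 35.6 against 58.6 and 75.05), RpS12, RpL3, RpL4 and RpL7.

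Mitochondrial ribosomal protein genes had 8 members of 26 and 0 opposite regions. The largest gap in this list was that of mRpL30, at 34.3 and 49.7 against 3.97 and 7.65 (X, 4647690 to 4647956), followed by mRpL55 at 49.2 and 64.8 against 11.4 and 30.7 (3R, 19094808 to 19095064). The mRpL55 site also holds an end of ATPsynD. Subunits of Mediator, TFIID and the RNA polymerases, the general machinery of transcription, had 8 of 22 and 0 opposite, led by MED23 (50.4 and 41.04 against 8.47 and 17.99) and Polr3G (45.9 and 46.4 against 27.01 and 26.5). Heat shock and chaperone genes had 6 members of 13 and 0 opposite, among them Hsp60A, a mitochondrial chaperonin gene, at 52.5 and 59.1 against 17.9 and 15.7 (X, 11108364 to 11108550). Their other members were both DnaJ-1 regions, CCT2, Hsp83 and Hsc70-3. DNA replication genes had 4 of 16 and 1 opposite, with Orc1 at 84.97 and 88.4 against 66.9 and 47.4 and dup, the Cdt1 gene of origin licensing, at 70.3 and 59.5 against 38.3 and 42.3.

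Proteasome subunit genes had 3 members of 11 and 2 opposite, with a median gap of 23.4 points. Prosalpha5 stood at 66.8 and 59.3 against 16.3 and 28.7 (2R, 17412536 to 17412835), and Prosalpha2 at 57.1 and 43.9 against 16.9 and 20.5. Aminoacyl-tRNA synthetase genes had 3 of 13 and 1 opposite. The 3 members (AspRS-m, ArgRS-m, TyrRS-m) encode mitochondrial enzymes, but so do AlaRS-m, TrpRS-m, SerRS-m and MetRS-m, whose regions were not members. AspRS-m stood at 56.6 and 61.8 against 30.04 and 14.2, and ArgRS-m at 78.4 and 98.04 against 45.1 and 61.5. Genes of the respiratory chain and ATP synthase had 3 of 14 and 1 opposite (ND-24, at 41.5 and 41.99 against 22.7 and 10.5, had the largest gap, ahead of ND-B22), and V-ATPase genes 3 of 15 and 2 opposite, with Vha13 after VhaSFD at 86.3 and 81.8 against 67.5 and 56.7.

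Vesicle coat, Vps and Sec genes had 7 of 26 and 4 opposite, led by deltaCOP, a coatomer gene, at 88.1 and 85.3 against 57.2 and 57.4, and by Sec22, whose controls lay far apart at 6.34 and 57.4. Nucleoporin genes had 2 of 9 (Nup54 and Nup93-1) and 0 opposite, and autophagy genes 2 of 6 and 1 opposite (Atg18b). Mitochondrial import genes had 1 of 4 (Tim17b) and 2 opposite (Tim23 and Tim17a2). Atg1, the kinase that starts autophagy, stood at 92.7 and 92.6 against 73.1 and 71.02 (3L, 12804827 to 12805225), while Atg13 had a gap of 2.78 points. Translation initiation factor genes had 1 of 12, eIF3e, with a gap of 2.92, and 1 opposite region, eIF2A. Where tRNA genes had the nearest end, 8 of 43 regions were members and 7 were opposite, with gaps of 18.006 points at tRNA:His-GTG-1-3 and 12.2 at tRNA:Asn-GTT-1-3.

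**Figure D4:**
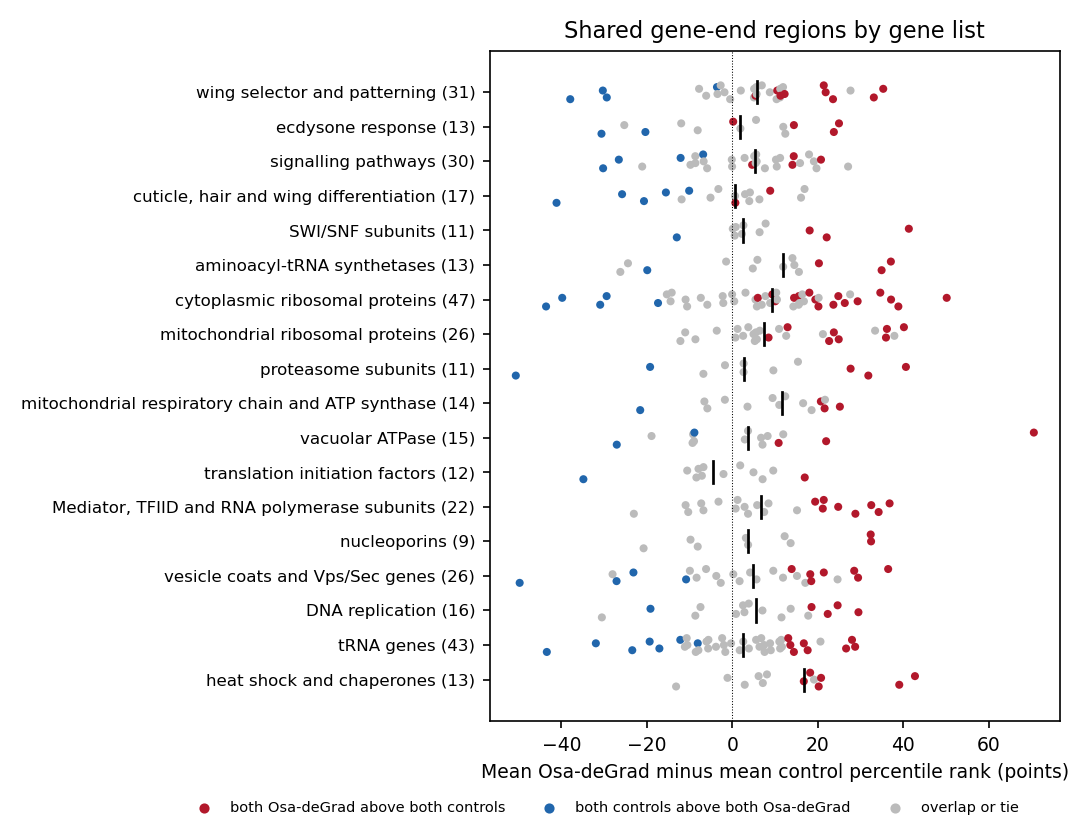
Mean Osa-deGrad minus mean control percentile rank (x axis, points) of each shared gene-end region, by gene list, for lists with at least 9 such regions; the number in brackets is the number of regions and the black bar their median. Red regions have both Osa-deGrad libraries above both controls, blue the reverse, and the median of all 3899 shared gene-end regions is 4.196 points.

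Wing selector and patterning genes had 9 members of 31 (29.03%) and 4 opposite regions (12.9%), near the 22.1% and 11.4% of all shared gene-end regions, with a median gap of 6.77 points. A protein-coding gene of the list had its end within 500 bp for 5 of the 9, and the others lay at noncoding gene ends. The region with the largest gap, assigned to tsh, lay 29655 bp from that gene and 188 bp from an end of lncRNA:CR44919. It stood at 69.6 and 75.4 against 31.7 and 47.02 (2L, 21866432 to 21866930). At salr, a zinc finger gene of wing patterning, the region 141 bp from the gene's end stood at 90.7 and 80.4 against 61.9 and 65.5 (2L, 11358481 to 11359137). Regions of the same locus could go both ways. At bi, which encodes the T-box factor Omb, the region at X, 4412610 to 4412932 stood at 99.5 and 99.2 against 92.6 and 95.2, whereas that at 4413180 to 4413606 stood at 55.6 and 11.7 against 59.7 and 68.2. Both dpp regions near a gene end were opposite, the one 36 bp from the gene's end at 57.4 and 57.7 against 99.2 and 91.7 (2L, 2427744 to 2428651).

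Ecdysone response genes had 4 members of 13 and 2 opposite regions. The one assigned to Hr38 lay 4213 bp from that gene and had a gap of 0.595 points, and the other was assigned to ftz-f1. At ftz-f1, a nuclear receptor gene, the member's summit was 218 bp from an end of the gene and it stood at 82.03 and 95.1 against 59.4 and 67.9 (3L, 18801265 to 18801700). The opposite region assigned to ftz-f1, 3506 bp from it, stood at 38.9 and 85.3 against 87.3 and 98.2. The member at EcR, the ecdysone receptor gene, was 490 bp away from that gene and 30 bp from tRNA:Arg-ACG-1-3, at 36.2 and 40.8 against 21.3 and 26.9. Eip74EF and ImpE1 had gaps of 5.49 and 0.0759 points. Signalling genes had 4 of 30 and 4 opposite. The largest gaps of the list were at the Dpp target repressor gene brk and the Notch modifier gene fng. The brk region stood at 97.5 and 98.6 against 76.9 and 90.5 (X, 7307293 to 7308327), and that of fng at 53.7 and 57.7 against 49.9 and 19.96. Delta, described above with larger gaps than brk, was not counted in this list, so the share leaves its regions out. Cuticle, hair and wing differentiation genes had 2 of 17 (11.8%) and 5 opposite (29.4%). Besides Cht6 the member was ple, the tyrosine hydroxylase gene, at 95.2 and 99.2 against 83.98 and 92.7.

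Among the genes of the remodeler itself, 3 of 11 regions were members and 1, Bap60, was opposite. Bap55, an actin-related subunit gene, had the widest gap of these, 32.5 points, at 53.1 and 53.6 against 3.46 and 20.7 (2R, 17430875 to 17431306), with an end of Lhr in the same window. Bap170, a subunit of the PBAP form of the complex, which lacks Osa, stood at 20.4 and 30.7 against 6.34 and 0.601 (2R, 6636449 to 6636800). An end of Trap1 lay in that window too. The PBAP gene polybromo had a gap of 2.85 points.

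Markers of other cells that a dissected wing can hold gave few regions. Hemocyte markers had 1 member of 1, assigned to srp from 7091 bp away and 422 bp from lncRNA:CR44133, at 94.8 and 83.7 against 39.5 and 67.4. Markers of neurons and glia had 1 of 2, at the glial gene repo (49.7 and 69.8 against 39.5 and 42.3). Muscle markers had 0 of 1, tracheal markers 0 of 4 and fat body markers 0 of 1, and 1 muscle (Mef2) and 2 tracheal regions (trh, Cad99C) were opposite. Open regions are not RNA levels, and the share of such cells in each library was not tested.

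Other shared regions of the same genes were a measure at sites that the rule had not chosen. Inside the bodies of 207 of the 844 genes lay 536 shared regions farther than 500 bp from any gene end. Both Osa-deGrad percentiles lay above both controls in 87 of them (16.2%) and below in 130 (24.3%), against 14.0% and 23.5% of all 4001 shared regions farther from gene ends. Their median difference between the genotype means was -3.77 points, against -3.04 over those 4001. A closer comparison is with inner regions of all genes that have a shared gene-end region, the members' genes included. Of those 1978 regions, 13.2% ranked higher in both Osa-deGrad libraries and 25.1% lower. The share ranked higher was thus somewhat larger in the members' genes (16.2%). The difference was not tested, and nothing particular about the members' genes is read from it. In 87 of the 207 genes (42.03%) an inner region ranked higher in both controls, close to the 359 of 862 genes (41.6%) with any shared gene-end region and an inner one. The loci below are thus examples and no excess.

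The gene raskol, which encodes a Ras GTPase activator, was the locus where the smaller of both opposite gaps was widest. Its end region stood at 75.2 and 44.4 against 20.2 and 13.9 in the controls (X, 17709925 to 17710310), and an inner region at 7.71 and 33.7 against 84.8 and 65.5 (X, 17714807 to 17715378). At Rab23, a small GTPase gene of planar polarity, the end region stood at 76.4 and 85.3 against 52.3 and 54.3 and the inner region at 13.3 and 22.98 against 90.6 and 83.9 (3R, 5683223 to 5683769). Delta followed, with an inner region at 51.04 and 66.1 against 95.8 and 86.1 (3R, 19312353 to 19312801). At Atg1 the inner region stood at 46.99 and 36.6 against 71.7 and 67.1. In each of these inner regions both controls lay above both Osa-deGrad libraries.

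**Figure D5:**
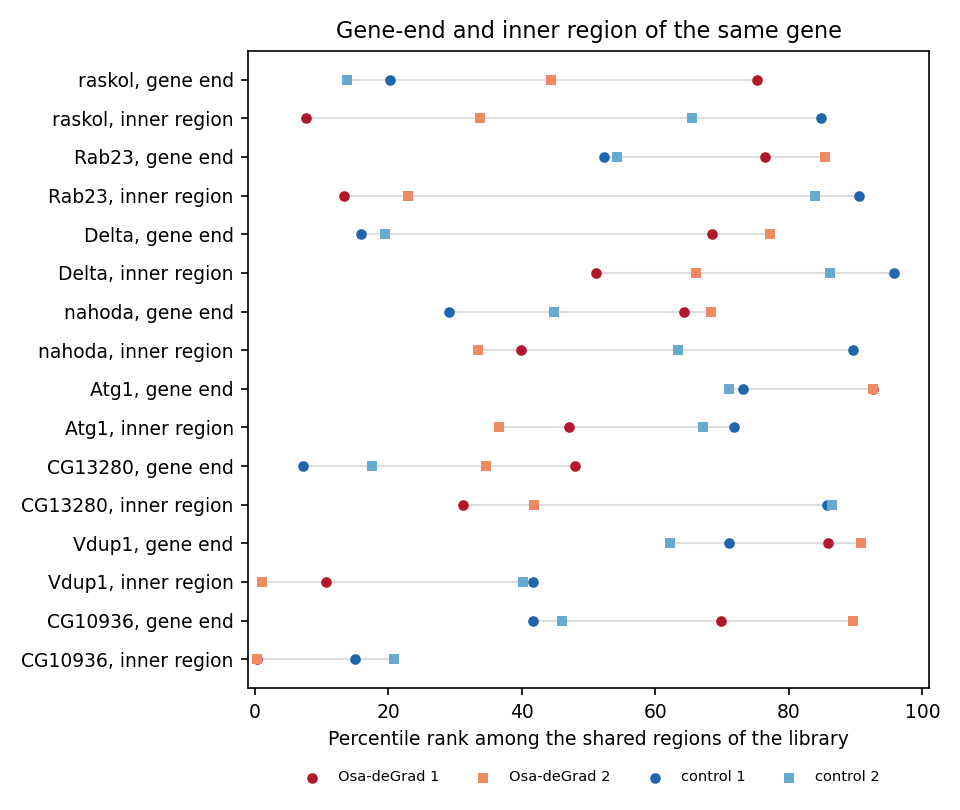
Percentile rank in each library (x axis) of a gene-end region and an inner region of the same gene, for the 8 genes in which the smaller of both opposite gaps was widest; red and orange mark Osa-deGrad 1 and 2, dark and light blue control 1 and 2. In every pair of rows the Osa-deGrad values lie to the right at the gene end and to the left at the inner region.

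Regions found in the lists of 1 genotype only were also counted in the bodies of these genes. A region that both Osa-deGrad lists held and no control list did lay in the body of 36 of the 844 genes (4.27%), against 134 of the 3512 genes (3.82%) with any shared gene-end region. For regions in both control lists only, the numbers were 68 genes (8.06%) against 288 (8.20%). The strongest opposite regions near gene ends were those of Gr5a, a sugar receptor gene (2.46 and 1.26 in Osa-deGrad against 55.6 and 78.8 in control libraries), Ote, an inner nuclear membrane gene (12.3 and 3.64 against 64.7 and 79.7), Pi3K21B, CG8034 and CG1273, with gaps of 43.8 to 53.2 points.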

How the data were processed

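FAIRE-seq peak lists of 2 Osa-deGrad and 2 control libraries were used. The deposited files are 1 narrowPeak list per library on dm6, so peaks were called per library. MACS2 2.1.2, Bowtie2 2.3.4.1, deepTools 2.4.1, SAMtools 1.9 and Picard 2.2.4 are listed, with no role or order, in the submitters' processing notes. Settings of the peak caller: not given in the sources used here. The deposited lists give, per peak, a fold enrichment (ratio), −log10 p and −log10 q values, an integer score that was not used, and the summit as an offset in bp. Ranking by −log10 q favours deep and wide peaks, and many regions tie in every library.

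Merging, ranking and gene distances were computed with Python 3.11.15 and pandas 2.3.3, and the steps were tested on simulated peak lists. Regions, coordinates (1-based) and gene ends refer to dm6 and to a table of RefSeq genes (assembly Release 6 plus ISO1 MT), with 17872 genes of all types and no strand. Sequence motifs were not analysed here. The summit of a region was that of its highest −log10 q over the 4 lists. Members and gene lists were chosen with earlier results of these data known. Genes were named by rule: the 12 largest gaps, the 3 highest and lowest mean percentiles, the 2 largest gaps in each of 25 gene lists, the 3 smallest gaps, the 3 regions just outside, genes with 2 or more members and the 5 largest opposite gaps. Beyond this rule, RpL22, RpL41, the bi and dpp regions, some further list members and the loci with opposite end and inner regions were picked after their values were seen.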

Additional observations from a re-analysis of the deposited data

How the results depend on the processing

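Peak lists hold no reads, so what depth limits could not be computed. A region missing from 1 list through depth alone is not among those ranked. All alternatives were planned. The count of 861 members was 868 when regions were ranked by fold enrichment, 776 with lists of equal length, 720 and 1018 with windows of 250 and 1000 bp, 826 with every library's own summit near a gene end and 860 with an overlap of 50% of the shorter peak. With peaks of −log10 q of at least 5 it was 534, since fewer regions were shared by construction, and members were 20.1% of the gene-end regions then. A minimum gap of 5 points left 586. Without each of the 4 libraries in turn it ranged from 1468 to 2015, as 1 library then has to beat or stay under only 2 others. Members were then 36.9% to 44.5% of the gene-end regions and opposite regions 22.3% to 27.6% (1010 to 1354), and the excess was smallest without Osa-deGrad 2 (36.9% against 27.6%). The median gap without a library ranged from 11.4 to 13.8 points. In the replicate block, where Osa-deGrad had to exceed the control within both same-numbered pairs, there were 1314 members and 707 opposite regions. The labels do not say that the numbers pair the libraries, and over the 7900 regions the differences between replicates 1 and 2 correlated across genotypes with r = 0.116. With all 4 libraries and no minimum gap the median gap lay between 8.22 and 9.39 points, and the minimum gap of 5 points raised it to 13.02 by construction. Windows and summits cannot change a region's gap, and the block only relaxes the rule. Leaving out a library relaxes the rule too, but it also ranks a different set of shared regions, so a gap can change. Of the 861 members, 95.6% (without control 1) to 99.4% (without Osa-deGrad 1) were then found again. As the rule was easier to meet in these settings, none of them was used to judge the stability of a named region. The other 4 alternatives kept the whole rule and could turn a gap. Of their 243 values for the 74 named regions, 234 kept their side of 0. Those that moved to or below 0 were fng, shd and CG9896, and Fsn and CG32795, just outside the rule, moved above 0. Of the 12 largest gaps, all 12 stayed above 0 when ranked by fold enrichment and with lists of equal length, and 11 had a value with the 50% overlap, all above 0. With −log10 q of at least 5 the other 11 were no longer shared and only Phb1 had a value. The members found again were 91.6% when ranked by fold enrichment, a measure of the same peaks, 88.6% with lists of equal length, 90.5% with the 50% overlap and 59.1% with −log10 q of at least 5.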
